A study of Mus musculus with 3 samples.

Results

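Transcripts of the actin and tubulin cytoskeleton were measured in splenic T cells that had been exposed to LZ-8, a protein of the lingzhi mushroom Ganoderma lucidum, for 10 h. The genes were a list of 48 symbols, chosen with earlier results of these data known, so contrasts with all genes are descriptions. The genes were matched by name with no threshold on a measured value, and all 48 were found among the 44788 rows of the count table. They encode the cytoplasmic actins, proteins that bind actin monomers, the Arp2/3 complex with its activators, capping proteins, crosslinkers, myosins, small GTPases with their exchange factors, tubulins, stathmin and vimentin. The T lymphocytes came from spleens of female BALB/c mice aged 6 to 8 weeks, had been drawn from the splenocytes with beads against CD90.2 (Thy1), and were kept in RPMI medium with 2% fetal bovine serum. The labels give no dose of LZ-8. All 3 libraries carried this 1 treatment and time, and no untreated or other group was analysed here, so nothing below measures an effect of LZ-8. Separate mice or cultures are not named for the replicates, so the spread between them, and any p-value resting on it, may be technical. The cells were taken for a surface protein that both CD4 and CD8 T cells carry, so each value is an average over T cell types, and fewer expressing cells cannot be told apart from less RNA per cell.

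Actin monomers add to the ends of filaments, and a T cell rebuilds its filaments continually while it crawls and while it holds an antigen-presenting cell. Thymosins and profilin hold the monomers, cofilin severs old filaments, the Arp2/3 complex starts branches where WASP or WAVE proteins switch it on, capping protein stops growth, and myosin pulls. Microtubules, built from dimers of an alpha and a beta tubulin, turn the centrosome towards the contact and guide secretion.

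Several of these genes are so alike that a read can match more than 1 of them, and no source used here states how the deposited counts treated such reads. Coding sequences of the GENCODE annotation of mouse build GRCm38 were therefore compared first. The actins Actb (beta) and Actg1 (gamma) shared 88.7% of 1128 coding bases, and their longest identical run was 62 bases. The start of each is shown because the proteins are known to differ near their start, and capitals mark the 9 bases of the first 60 that differ.
Actb: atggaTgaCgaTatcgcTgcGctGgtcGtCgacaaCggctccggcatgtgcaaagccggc
Actg1: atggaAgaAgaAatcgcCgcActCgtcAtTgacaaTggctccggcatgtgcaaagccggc

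The thymosins Tmsb4x and Tmsb10, small peptides that sequester actin monomers, were less alike. They shared 70.4% of 135 coding bases with no identical run above 10 bases. Both are shown whole because they are short and their counts behaved differently between libraries, with capitals at the 40 bases that differ.
Tmsb4x: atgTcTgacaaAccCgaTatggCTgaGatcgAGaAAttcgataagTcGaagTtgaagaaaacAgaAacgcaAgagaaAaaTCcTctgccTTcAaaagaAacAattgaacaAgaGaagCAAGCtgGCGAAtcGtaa
Tmsb10: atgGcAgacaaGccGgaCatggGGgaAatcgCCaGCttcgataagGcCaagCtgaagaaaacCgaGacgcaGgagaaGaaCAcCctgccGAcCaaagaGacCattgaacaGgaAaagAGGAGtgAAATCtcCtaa

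Tuba1a, Tuba1b and Tuba1c, the alpha tubulins of a gene cluster on chromosome 15 (98931425 to 99038110), were the closest relatives. Tuba1b shared 98.3% of its coding bases with Tuba1a and 98.4% with Tuba1c, with identical runs of up to 281 and 468 bases.

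The main beta tubulins, Tubb5 and Tubb4b, shared 82.4% of the aligned coding bases with an identical run of at most 26. Their ends, from coding base 1276, are shown because the acidic tail of tubulin is where the family varies. Capitals mark the 17 of 60 aligned bases that differ and the 3 bases that Tubb4b has in addition.
Tubb5: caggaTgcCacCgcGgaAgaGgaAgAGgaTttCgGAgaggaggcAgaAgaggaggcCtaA
Tubb4b: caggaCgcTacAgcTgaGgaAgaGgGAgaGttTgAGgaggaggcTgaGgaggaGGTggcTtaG

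The libraries held 13239482, 15007652 and 15683820 counts, and 3 counts corresponded to 0.236, 0.198 and 0.186 CPM, where CPM is the count in each 1000000 of the library's scaled total. The ribosomal row Rn18s-rs5 took 5.83%, 2.37% and 0.992% of the counts. The label of T cells was matched by the markers: all 9 T cell genes reached 10 CPM, led by Cd5 at 651 CPM, and their sum was 2652 to 2750 CPM. Sums were 11.1 to 11.8 CPM for 5 B cell genes, 13.4 to 16.5 CPM for 6 macrophage genes (Mpeg1 9.20, Csf1r at 0) and 10.3 to 12.2 CPM for 5 dendritic cell genes (Zbtb46 9.90). They were at most 3.38 CPM for stroma and smooth muscle (Tagln 1.5), 2.99 for erythroid cells (Hba-a1 1.64), 1.02 for neutrophils (Ngp 0.18) and 0.99 for NK cells (Klrb1c 0.81, Ncr1 and Klra8 at 0). For platelets, which are rich in cytoskeletal transcripts, the sum was at most 0.08 CPM, with Pf4, Ppbp, Gp9 and Tubb1 at 0 and Gp1ba at 0.05.

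The 48 listed genes, chosen with earlier results of these data known, were abundant. Their sum was 18256, 17737 and 17074 CPM in replicates 1, 2 and 3, or 1.77% of the scaled counts. Of the 48 genes, 46 averaged 10 CPM or more, 37 averaged 100 CPM or more and 3 (Actb, Myh9 and Lcp1) exceeded 1000 CPM. The median gene stood at 238 CPM, against 28.1 CPM for the 12941 genes that reached 1 CPM in every library. Per kilobase of exon, the scale on which genes of different length can be compared, the median was 62.0 CPM, against 8.39 for the 12333 of those genes with a known length. The 10 highest per kilobase were, in order, Actb, Tmsb4x, Tuba1b, Tubb5, Pfn1, Tubb4b, Coro1a, Tuba1c, Cfl1 and Arpc2, and the 5 lowest were Tubb6, Stmn1, Myo1f, Rhoh and Vim. Actb and Tmsb4x overlapped between libraries, and Pfn1, with its wide spread, overlapped every gene from Tubb5 to Arpc2. By the longest coding transcript Pfn1 (656) was the third, Lcp1 (321) entered the first 10 in place of Tuba1c (210.5), and Dock8 (22.6) stood below Vim (24.3). The 157 other genes of the pathway, described below, were not so abundant. Their medians were 29.1 CPM and 5.16 CPM per kilobase of exon, with no limit of 1 CPM applied.

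**Figure D1:**
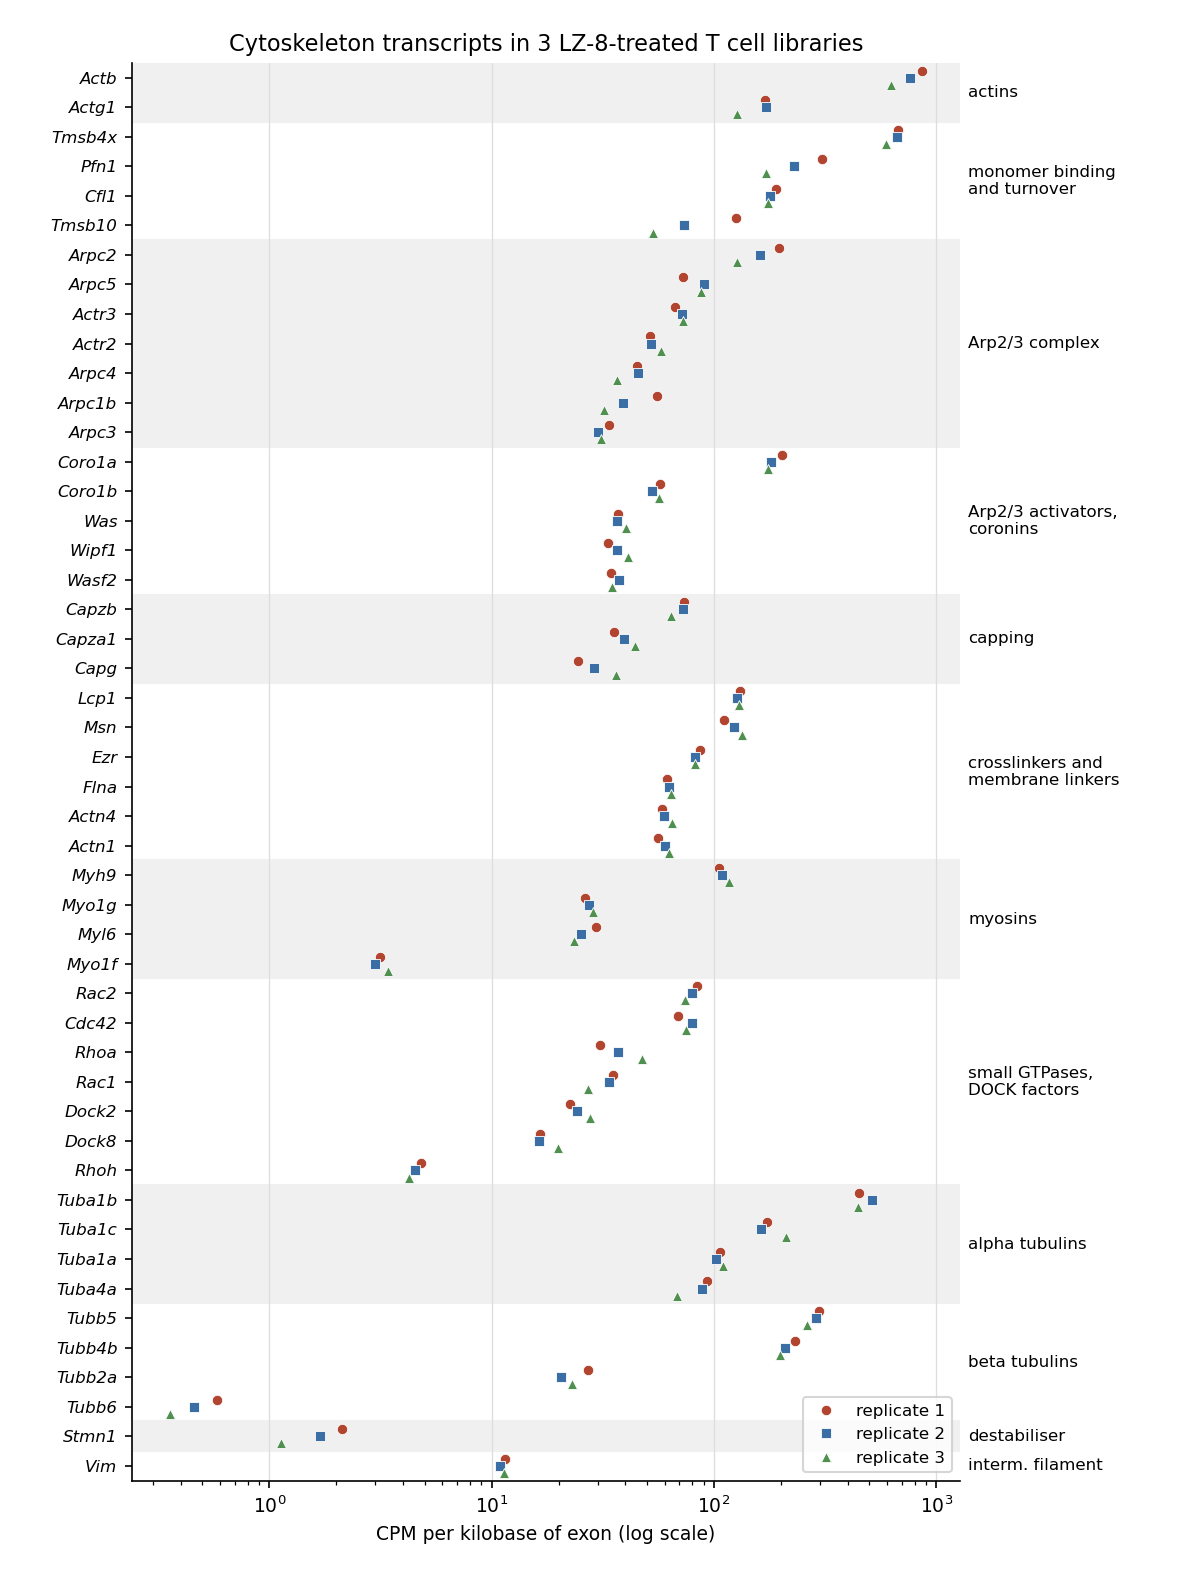
Level of each of the 48 cytoskeletal genes in CPM per kilobase of exon (log axis), grouped by role, with a point for each of the 3 libraries. Actb, Tmsb4x and Tuba1b lie highest, and Tubb6 and Stmn1 lie lowest and apart from the rest.

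Actb was the most abundant of all 48 on either scale. It was counted at 2322, 2040 and 1675 CPM in replicates 1, 2 and 3, or 751 ± 121 CPM per kilobase (SD, n = 3), and was row 17 of the whole table by mean CPM. Actg1, which encodes the actin that differs from beta-actin in a few residues of its start, was at 452, 458 and 336 CPM, or 156 ± 25.7 CPM per kilobase. Both were lowest in replicate 3, and their ranges did not come near each other. The gene for beta-actin lies on chromosome 5 (142903115 to 142906754, minus strand) and that for gamma-actin on chromosome 11 (120345690 to 120348542, minus strand) in GRCm38. Within each library Actb exceeded Actg1 per kilobase by 2.27 ± 0.11 on the log2 scale (SD, n = 3), or 4.81-fold. Muscle actins were near the floor, with Acta1 at 1.1 ± 0.167 and Acta2 at 0.66 ± 0.06 CPM.

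All 4 genes for proteins that bind monomers or turn filaments over reached 100 CPM, but they did not vary alike. Tmsb4x was at 923, 914 and 814 CPM, or 645 ± 44.1 CPM per kilobase, which placed it next to Actb in the order. It was lowest in replicate 3, as Actb was. Tmsb10 was at 161, 93.3 and 67.8 CPM, a 2.38-fold span with replicate 1 high and replicate 3 low, the widest span of the 48. Tmsb4x therefore exceeded Tmsb10 by 2.41, 3.19 and 3.48 on the log2 scale per kilobase, a mean of 3.03 ± 0.55 or 8.16-fold. Pfn1, the profilin that hands monomers to growing ends, was at 733, 550 and 411 CPM, a 1.78-fold span in the same order. Cfl1, the cofilin that severs filaments, was nearly level at 543, 508 and 498 CPM. The ratio of Pfn1 to Cfl1 per kilobase changed sign between libraries, with log2 values of 0.68, 0.36 and -0.03. It was 1.54 ± 0.36 when the longest coding transcript was taken as the length, so the counts alone did not order these genes. Among 15 other genes of this role, 11 reached 10 CPM, led by Cap1, a cyclase-associated protein that recycles actin, at 497 ± 18.5 CPM and the cofilin partner Wdr1 at 239 ± 18.3 CPM.

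The 7 subunits of the Arp2/3 complex measured here, which assemble in equal numbers, had unequal transcript levels. Arpc2 was highest at 162 ± 34.5 CPM per kilobase and Arpc3 lowest at 31.7 ± 1.86, a 5.09-fold range of means. By the longest coding transcript the range was 5.27-fold, but Arpc3 then stood at 97.5 and Arpc4 was lowest at 43.3, so the ranks depended on the length used. By exon length Arpc5 followed Arpc2 at 83.3 ± 9.45 per kilobase, then the actin-related proteins Actr3 at 70.6 ± 3.23 and Actr2 at 53.7 ± 3.48. Arpc4 at 42.4 ± 5.12 and Arpc1b at 42.2 ± 12.1 did not differ beyond their spread. By the longest transcript Actr3 (127) stood above Arpc5 (99.0), and Arpc1b (69.5) above Arpc4. In CPM, Arpc2 was at 398, 329 and 258 and Arpc1b at 284, 199 and 164, both highest in replicate 1 and lowest in replicate 3, with spans of 1.54-fold and 1.74-fold. Arpc5 went the other way, at 165, 205 and 198 CPM. Actr3 (310, 334 and 337 CPM), Actr2 (268, 271 and 300), Arpc3 (93.4, 83.5 and 86.1) and Arpc4 (104, 106 and 84.6) had narrower spans than Arpc2 and Arpc1b.

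Some subunits exist in alternative forms, among them Arpc1b, which is prominent in blood cells. Arpc1b exceeded its paralog Arpc1a (57.1, 56.8 and 51.5 CPM) by 0.94 ± 0.34 on the log2 scale per kilobase, and it was higher in 3 of 3 libraries. Arpc5 exceeded Arpc5l (40.3, 36.3 and 33.5 CPM) by 3.35 ± 0.29, or by 1.85 ± 0.29 with the longest transcript. Actr3 exceeded Actr2 by 0.40 ± 0.07. A further actin-related subunit, Actr3b, was the third gene of the list of other subunits and had the lowest level, 1.54 CPM.

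Activators of the complex were all above 10 CPM. Was, the blood cell WASP protein, was at 88.5, 87.3 and 95.5 CPM, and Wasf2, a WAVE protein that acts downstream of Rac, at 215, 234 and 219 CPM. Per kilobase they stood at 38.0 ± 1.86 and 35.6 ± 1.61 and their log2 ratio of 0.09 ± 0.12 changed sign between libraries. Without a length, as a ratio of counts, it was -1.30 ± 0.12. Wipf1, the partner that stabilises WASP, was at 37.1 ± 3.72 per kilobase (198, 217 and 242 CPM), within the spread of both. Coro1a, the coronin that T cells need to survive and traffic, was at 562, 502 and 488 CPM, or 186 ± 14.2 per kilobase, and exceeded Coro1b (184, 169 and 181 CPM) by 1.74 ± 0.10 on the log2 scale. Of 18 other activators, WAVE complex members and coronins, 12 reached 10 CPM, led by Cyfip2 at 379 ± 19.6 and the cortactin-like Hcls1 at 251 ± 4.35 CPM.

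Several of these families have a form used in blood cells and a form used broadly, and 5 families were chosen as examples after the values had been seen. In 3 of them the blood cell form was the more abundant and in the other two the broad form was. Nckap1l, the blood cell subunit of the WAVE complex, was at 169 ± 16.4 CPM and its broad paralog Nckap1 at 19.3 ± 3.56 CPM. Hcls1 stood at 251 CPM and the broad cortactin Cttn at 1.46 ± 0.334 CPM. Dock2 was at 257, 276 and 315 CPM and its broad relative Dock1 at 0.81 ± 0.105 CPM. In the other direction, Arhgdia, the broad inhibitor of small GTPases, was at 664 ± 45.5 CPM and its blood cell relative Arhgdib at 267 ± 31.3 CPM. The broad glia maturation factor Gmfb was at 121 ± 9.80 CPM and the blood cell form Gmfg at 12.9 ± 0.104 CPM. These are CPM without a length.

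Capping and severing genes lay in the middle of the range. Capzb, the beta subunit of capping protein, was at 241, 238 and 211 CPM and Capza1, an alpha subunit, at 135, 149 and 167 CPM. Capza1 exceeded the other alpha subunit Capza2 (96.1, 106 and 116 CPM) by 1.14 ± 0.02 on the log2 scale per kilobase, but by only 0.17 ± 0.02 with the longest transcript. Capg, a gelsolin relative that caps without severing, was at 62.1, 73.3 and 91.8 CPM, highest in replicate 3, a 1.48-fold span. Of 9 other genes of this kind, Rltpr (Carmil2), a capping regulator used in CD28 costimulation, was highest at 214 ± 4.0 CPM, followed by Flii at 209 ± 9.88 CPM.

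Crosslinkers and membrane linkers held 20.2% of the summed CPM, the largest share of the 12 roles, but their transcripts are long. Summed per kilobase of exon they stood at 519, below the monomer-binding genes (1145), the actins (907) and the alpha tubulins (842), and level with the beta tubulins (520.2). By the longest coding transcript their sum was 864, above the beta tubulins (658). It was still below the alpha tubulins (931), the actins (1261) and the monomer-binding genes (2054). Lcp1, the leukocyte plastin that bundles filaments, was at 1251, 1207 and 1237 CPM with an SD of 22.6, a span of 1.04-fold. It exceeded Pls3, the plastin of many other tissues (3.14, 2.77 and 3.10 CPM), by 7.52 ± 0.07 on the log2 scale per kilobase, or 183-fold (347-fold by the longest transcript). Filamin A (Flna), which joins filaments into nets, was at 578, 592 and 605 CPM. The alpha-actinins Actn4 (359, 366 and 396 CPM) and Actn1 (311, 333 and 349 CPM) were indistinguishable per kilobase of exon, with a log2 ratio of 0.03 ± 0.04 that changed sign. By the longest transcript Actn4 was slightly higher in 3 of 3 libraries, by 0.12 ± 0.04. Moesin (Msn) and ezrin (Ezr) tie the cortex to the membrane, and Msn was at 699, 781 and 846 CPM while Ezr was at 285, 270 and 270 CPM. Msn exceeded Ezr by 0.55 ± 0.18, or by 1.21 ± 0.18 with the longest transcript. Tln1, the talin that joins integrins to actin, was at 741 ± 48 CPM and the scaffold Iqgap1 at 485 ± 25.7 CPM, the highest of 14 other genes of this role.

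Among the myosins, Myh9, the heavy chain of nonmuscle myosin IIA, was at 1360, 1404 and 1518 CPM, row 33 of the table. The gene is long, and per kilobase it was 110 ± 6.33. Myo1g, a membrane-bound myosin of blood cells, was at 183, 191 and 198 CPM, Myl6, a light chain, at 94.4, 80.6 and 74.9 CPM, and Myo1f at 15.6, 14.8 and 16.9 CPM. Myo9b at 384 ± 0.129 and Tpm3, a tropomyosin, at 222 ± 14.8 CPM led 16 other myosins, light chains and tropomyosins, of which 10 reached 10 CPM.

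Of the GTPases, Rac2, Cdc42, Rhoa and Rac1 all exceeded 100 CPM. Rac2, the Rac of blood cells, was at 260, 247 and 231 CPM and exceeded Rac1 (158, 151 and 122 CPM) by 1.31 ± 0.12 on the log2 scale per kilobase. Cdc42, an activator of WASP, was at 205, 237 and 222 CPM, and at 74.6 ± 5.41 per kilobase it lay within the spread of Rac2 at 79.2 ± 4.73. By the longest transcript Cdc42 was the higher, at 105 ± 7.61 against 80.9 ± 4.83. Rhoa, which activates myosin through its kinases, was at 229, 277 and 357 CPM, highest in replicate 3 and a 1.56-fold span. Rhoh, a GTPase without enzymatic activity needed for receptor signalling, was at 49.5, 46.8 and 43.9 CPM. Dock2, the Rac exchange factor of migrating lymphocytes, exceeded Dock8 (167, 164 and 200 CPM), which activates Cdc42, by 0.50 ± 0.07. Arhgdia, which holds small GTPases in the cytosol, was highest of 28 other GTPases and regulators at 664 ± 45.5 CPM, followed by Arhgef1 at 432 ± 20.8 CPM.

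**Figure D2:**
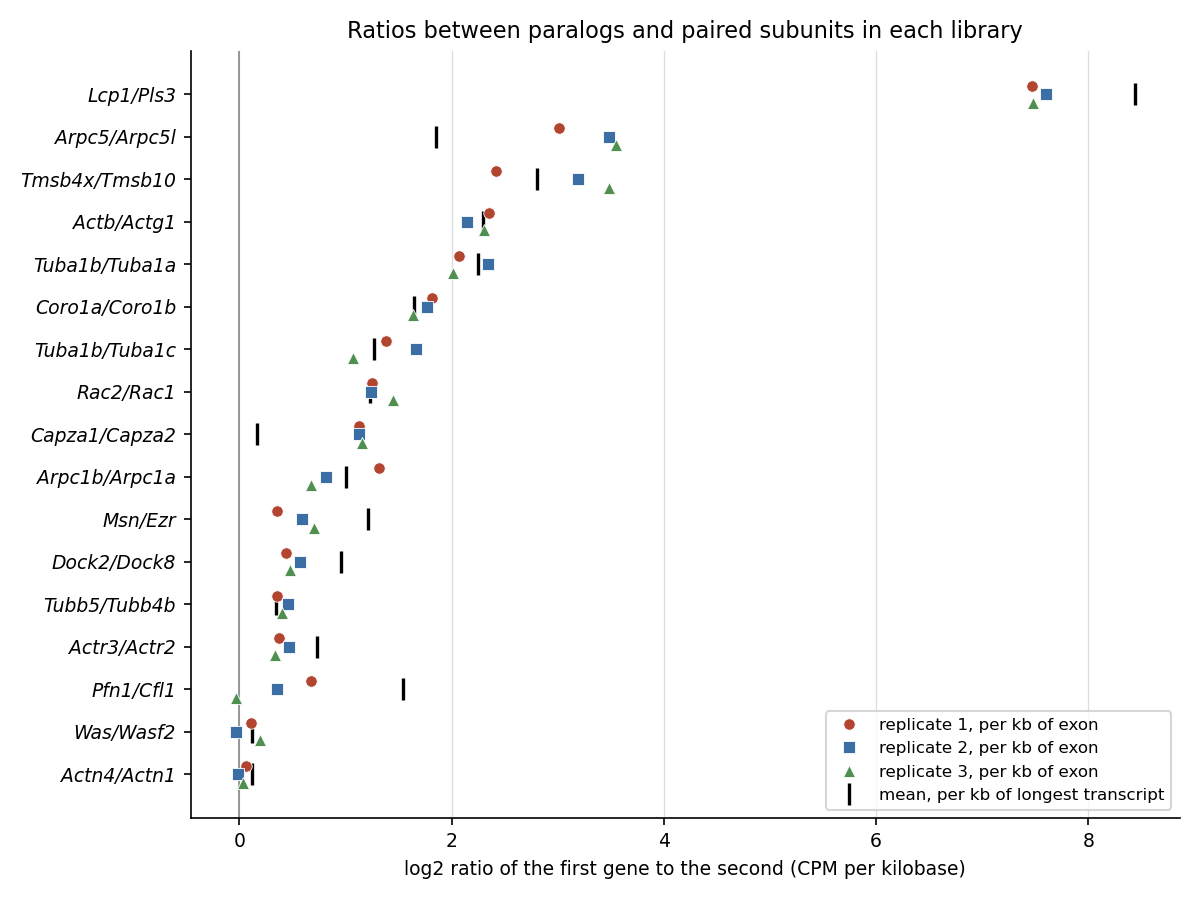
Log2 ratio of the first gene to the second within each library, per kilobase of exon, for 17 pairs of paralogs or of proteins with linked roles; a symbol stands for each replicate and the black bar for the mean per kilobase of the longest coding transcript. The ratio of Lcp1 to Pls3 is the highest (7.52 per kilobase of exon), Pfn1 to Cfl1, Was to Wasf2 and Actn4 to Actn1 lie on both sides of 0, and the bar is far from the symbols where the lengths disagree, as for Arpc5 to Arpc5l and Capza1 to Capza2.

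Alpha tubulin counts came mainly from the chromosome 15 cluster. Tuba1b was at 843, 969 and 831 CPM, Tuba1c at 396, 374 and 482 CPM and Tuba1a at 193, 184 and 198 CPM. Per kilobase the order was Tuba1b (470 ± 40.8), Tuba1c (182 ± 25.1), Tuba1a (106 ± 3.84) and Tuba4a (83.4 ± 13.5), and no neighbours in this order overlapped between libraries. By the longest transcript the last 2 did overlap, with Tuba4a at 109 ± 17.6 and Tuba1a at 106 ± 3.84. Tuba1b exceeded Tuba1a by 2.14 ± 0.17 and Tuba1c by 1.37 ± 0.30 on the log2 scale. The 3 genes are near-identical over most of their coding length, so their split rests on how shared reads were assigned and is uncertain. Tuba4a, on chromosome 1, was at 346, 328 and 252 CPM, and 37.3% of its exon length lay over the opposite-strand gene Stk16 (45.2 ± 7.02 CPM).

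Beta tubulin was carried by Tubb5 and Tubb4b. Tubb5 was at 989, 959 and 875 CPM (283 ± 17.8 per kilobase) and Tubb4b at 484, 438 and 415 CPM (213 ± 16.9 per kilobase), a log2 ratio of 0.41 ± 0.05. With the pseudogene rows described below added, this ratio was 0.10 ± 0.08. Tubb2a was at 43.5, 32.9 and 37.0 CPM. Tubb6 had only 18, 17 and 14 counts (1.13 ± 0.274 CPM). Of 11 further tubulins, gamma-tubulin 1 (Tubg1), which seeds microtubules at the centrosome, was highest at 44.2 ± 2.26 CPM and Tubb2b followed at 11.8 ± 1.06 CPM.

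Stathmin 1 (Stmn1), which takes tubulin dimers out of use and is known as a gene of dividing cells, had 52, 49 and 35 counts, or 4.08, 3.23 and 2.17 CPM. The highest library, replicate 1, was 1.88-fold above the lowest, replicate 3. Microtubule regulators outside the 48 were better expressed, with 17 of 21 at 10 CPM or more, Mapre1, a plus-end protein, at 215 ± 11 CPM and Map4 at 162 ± 5.90 CPM. Vimentin (Vim), the intermediate filament of lymphocytes, was at 54.2, 51.6 and 54.0 CPM, or 11.2 ± 0.298 per kilobase. The nuclear lamins Lmnb2 at 88.1 ± 4.05 and Lmnb1 at 67.5 ± 8.38 CPM led the other intermediate filaments.

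The 17 ratios given or listed above were tested with an exact two-sided sign-flip test over libraries. The first gene was higher in every library for 14 of them, each with an exact p = 0.25 and an adjusted p of 0.30 over the 17. As 0.25 is the smallest p that 3 libraries allow, no ratio could pass 0.05. The pairs were chosen with earlier results of these data known, and the first gene had the higher mean in all 17, so the count is a description. Pairs with 1 sign in every library were 16 by the longest transcript and 16 without a length, where Was to Wasf2 was negative.

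Whether the 3 libraries differed beyond counting error was asked of each gene by chi-square, comparing its raw counts with the scaled library sizes (Benjamini-Hochberg adjustment over 15392 genes). This compares libraries, not conditions. Of the 48 cytoskeletal genes 42 passed an adjusted p of 0.05, or 87.5%, while 42.8% of all genes tested did. The test sees smaller differences where counts are high, and above a mean of 100 CPM 36 of 37 cytoskeletal genes passed, against 78.5% of 2538 genes. The genes not passing were Ezr (adjusted p = 0.069), Was (0.075), Rhoh (0.165), Myo1f (0.434), Tubb6 (0.500) and Vim (0.673). By size, 6 of the 48 both passed and spanned 1.5-fold or more, namely Tmsb10, Stmn1, Pfn1, Arpc1b, Rhoa and Arpc2, against 13.8% of all genes. Above a mean of 100 CPM these were 5 of 37, against 7.25% of 2538. Stmn1 passed narrowly (adjusted p = 0.034) on few counts.

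Of the 42 genes, 20 were highest in replicate 1, 6 in replicate 2 and 16 in replicate 3. Of all 6589 genes that passed, 2758, 886 and 2945 were highest in replicates 1, 2 and 3. These are 17.9%, 5.76% and 19.1% of the 15392 genes tested. Without replicate 1, none of the 48 spanned 1.5-fold and passed, and without replicate 3 only Tmsb10 did. The number of the 48 that passed was 29 without replicate 1, 36 without replicate 2 and 29 without replicate 3. Of all genes tested, 3836 of 15717 passed without replicate 1, 6384 of 15360 without replicate 2 and 3555 of 15573 without replicate 3. The share of all genes past 1.5-fold was not computed with a replicate left out. The median coefficient of variation of the 46 genes of at least 10 CPM was 7.44%, against 8.67% for all 9204 such genes and 7.11% for those of at least 100 CPM.

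Transcript length moved with these differences. Across the 48 genes the log2 ratio of replicate 1 to replicate 3 had a Pearson correlation of -0.49 (Spearman -0.50) with the log2 length of the longest coding transcript and of 0.33 (Spearman 0.25) with its GC content. These are descriptions across genes that share the same 3 libraries. Of 7 genes with transcripts under 1500 bases, 6 were higher in replicate 1 than in replicate 3 and Capg was the exception, and of 41 longer ones 21 were. The same was asked of all coding genes with a known length that reached 1 CPM in every library. Of these, 71.0% of 1405 short and 36.1% of 8866 longer ones were higher in replicate 1, with median log2 ratios of 0.24 and -0.09. The part of length or of ribosomal reads in the differences between libraries was not tested.

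**Figure D3:**
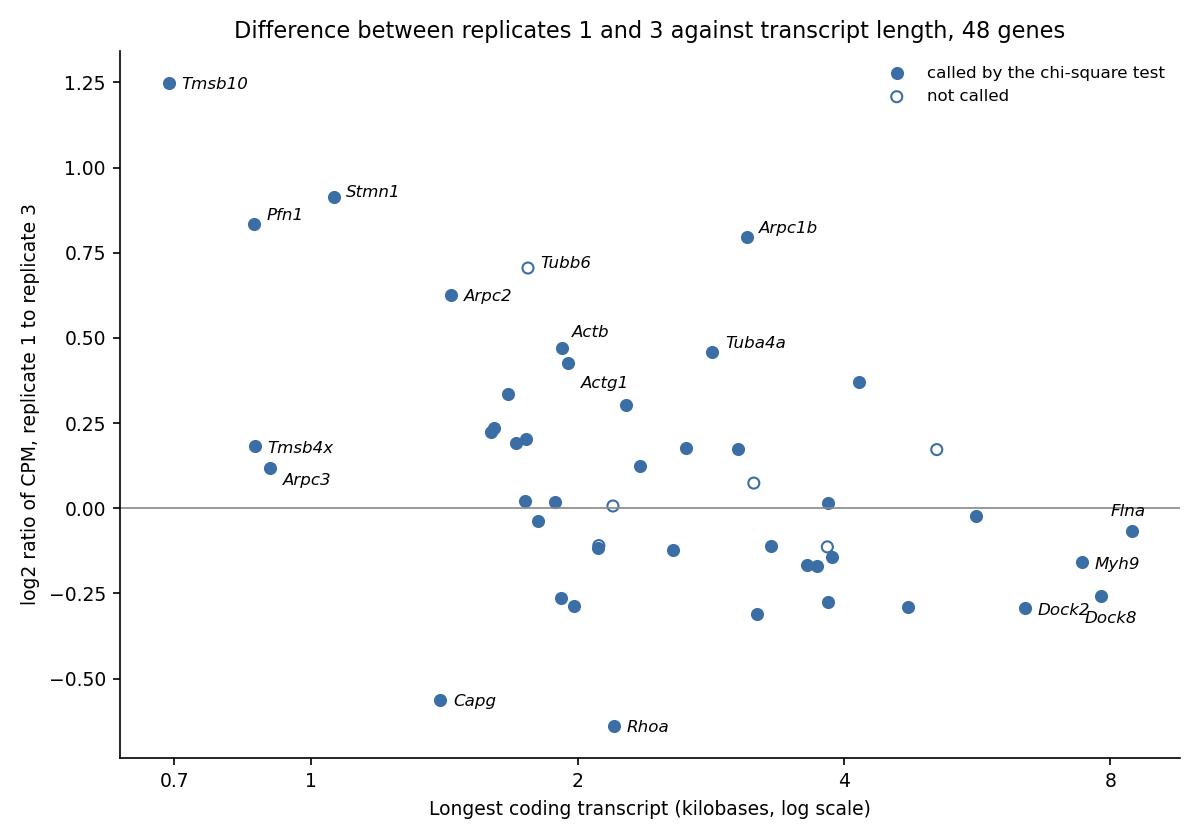
Log2 ratio of replicate 1 to replicate 3 in CPM against the length of the longest coding transcript (kilobases, log axis), a point for each of the 48 genes, filled where the gene passed the chi-square test and open where it did not. Tmsb10, Pfn1, Stmn1 and other short transcripts lie above 0, Capg and Rhoa lie lowest, and the longest transcripts (Flna, Dock8, Myh9 and Dock2) lie below 0.

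Many cytoskeletal genes have processed pseudogenes, copies of their messenger RNA pasted back into the genome, and these had rows of their own in the table. A pseudogene row was counted as a copy where at least 90% of the bases matched over 100 or more bases and at least 50% of the coding sequence. By this measure 19 of the 48 genes had 48 copy rows, and those rows held 2299 CPM in all, or 13.0% of the summed level of the 48 genes. For 14 genes the copies came to more than 5% of the gene's own row, when rows shared by several genes were counted for each of them. Where copies were added to a gene, each row went only to the gene it matched best. Whether reads in these rows came from the parent genes was not tested.

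For gamma-actin the copies outnumbered the gene. The Actg1 row averaged 415 ± 68.4 CPM, while its 8 copy rows summed to 759, 526 and 465 CPM, or 583 ± 155 CPM. Most of that was Gm12715, a row at 398 ± 105 CPM whose sequence matched 99.6% of the 1128 coding bases of Actg1. Actb, by contrast, had 1 copy row at 36.3 CPM, or 1.80% of its own level. The coding gene Lrrc58 (103 ± 5.85 CPM) also held a stretch that matched 93.2% of Actb over 1080 bases, and was not counted as a copy. With copies added, Actb exceeded Actg1 by 1.03 ± 0.07 on the log2 scale instead of 2.27.

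Outside the alpha tubulins, the copies outnumbered 3 more genes. Myl6 averaged 83.3 ± 10.0 CPM and its 4 copy rows 200.2 ± 6.34 CPM, led by Gm5526 at 100.3 ± 15.5 CPM. Capza1 averaged 149.98 ± 16.2 CPM and its copies 186 ± 9.08 CPM, nearly all in Gm3608. Stmn1 averaged 3.16 ± 0.960 CPM and its copy Gm11223, which matched 99.8% of 450 bases, 7.30 ± 1.62 CPM. With copies added, Capza1 exceeded Capza2 by 2.31 ± 0.04 on the log2 scale instead of 1.14, and Stmn1 reached 10.46 ± 2.58 CPM.

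For other genes the pseudogene rows were the smaller part. The alpha tubulins Tuba1a, Tuba1b and Tuba1c together averaged 1490 ± 51.4 CPM and their 9 copy rows 623 ± 17.8 CPM, or 41.9%, with Gm14150 the largest at 147 ± 17.7 CPM. Actr3 (327 ± 14.9 CPM) had 1 copy row, Gm8822, at 172 ± 8.31 CPM. Tmsb10 (107 ± 48.3 CPM) had copies at 86.6, 59.3 and 37.2 CPM, highest in replicate 1 and lowest in replicate 3 like the gene itself. A further row, Gm9844, matched 98.5% of the 135 coding bases of Tmsb10 but is annotated as coding and was not counted as a copy. It was at 103, 55.7 and 30.5 CPM, and with it the near-identical rows averaged 124 ± 61.5 CPM, above Tmsb10 itself. Cfl1 (516 ± 23.5 CPM) had copies at 124 ± 12.1 CPM and Tubb4b (446 ± 35.4 CPM) at 108 ± 26.2 CPM, and no copy was found by this measure for Tmsb4x, Pfn1, Tubb5 or Myh9. With copies added, Tmsb4x exceeded Tmsb10 by 2.37 ± 0.54 and Tuba1b exceeded Tuba1a by 2.82 ± 0.13 on the log2 scale. Tubb5 then exceeded Tubb4b by only 0.10 ± 0.08. Its excess was 0.12 ± 0.08 when only rows named as pseudogenes of Tubb4b were added, the planned form of this check. Per kilobase, Tuba1b (764.9) then stood level with Actb (764.6), and Actg1 (376) moved up to the fourth place after Tmsb4x. Adding each row to its best match gave Tuba1b 7 of the 9 alpha tubulin rows, on small margins. Gm14150, for example, matched Tuba1b at 98.6% and Tuba1c at 98.4% of aligned bases. The place of Tuba1b and its ratio to Tuba1a with copies added therefore depend on this rule. With copies added, 6 genes still passed the chi-square test with a span of 1.5-fold, with Actg1 in place of Rhoa. The share of all genes past 1.5-fold was not computed with copies added. Pfn1 and Cfl1 then had a log2 ratio of 0.02 ± 0.39.

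**Figure D4:**
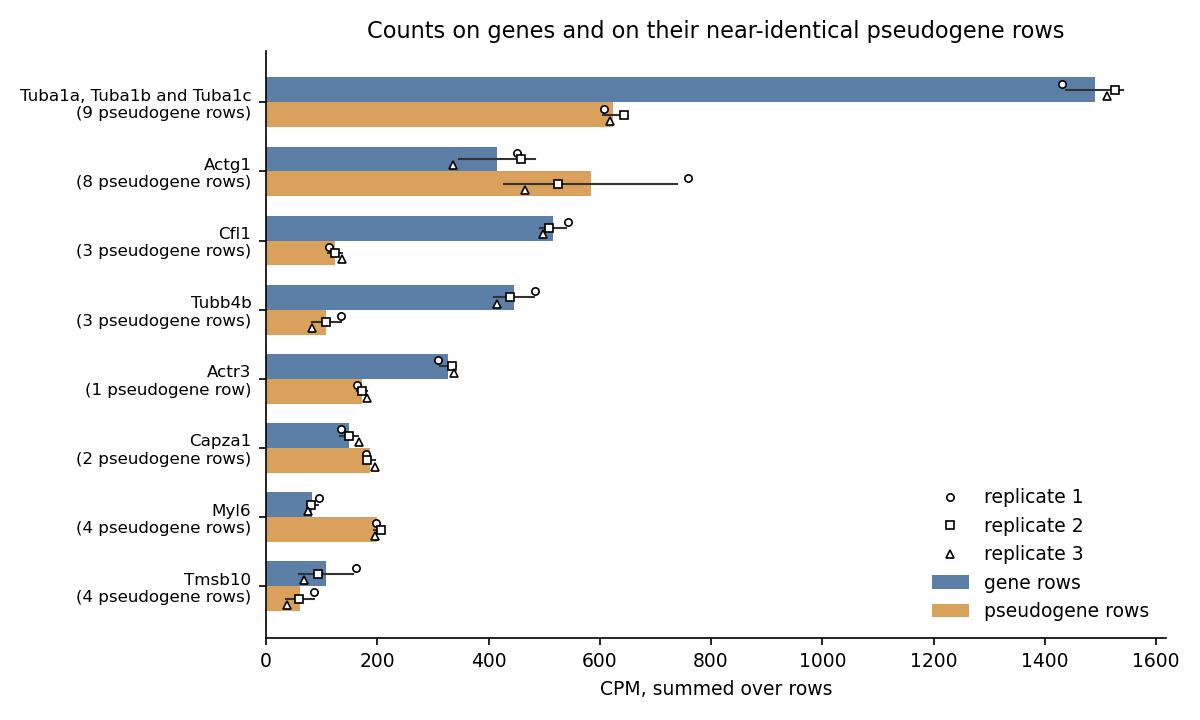
Mean CPM (bars, linear axis from 0) of cytoskeletal gene rows and of the summed rows of their pseudogene copies, with lines for the SD over 3 libraries and a symbol for each replicate. The copy bar is the longer one for Actg1, Capza1 and Myl6 and the shorter one for the alpha tubulins, Cfl1, Tubb4b, Actr3 and Tmsb10.

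Overlap with other genes also limits some values, since no source used here says whether the counting used strand. The overlap was largest for Rac1, with 51.4% of its exon length over the opposite-strand gene Daglb (20.02 ± 1.74 CPM). Tuba1a and Tuba1b shared 26.2% and 22.7% with Gm49450, a coding gene on the same strand with no matched row in the count table. Cfl1 shared 16.5% with the opposite-strand gene Snx32 (3.23 ± 0.447 CPM). Arpc1b shared 18.2% of its exon length with the opposite-strand gene Pdap1, at 255 ± 7.19 CPM more abundant than Arpc1b itself. Coro1b shared 13.5% with Ptprcap on the same strand (195 ± 24.8 CPM), and Arpc4 shared 12.2% with Ttll3 on the same strand (54.0 ± 2.91 CPM).

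Many muscle and cytoskeletal genes carry CArG boxes, the sites of serum response factor, whose cofactors are held by free actin. The CArG box was searched on both strands in RefSeq promoter windows of GRCm38.p6 from 250 bases before to 50 after each start. Of the 48 genes 42 had a window, and 3 of those held a box (7.14%), against 488 of 27025 genes with a window (1.81%). The 3 were Actg1, Myl6 and Arpc4, with the box at the very edge of the window in Arpc4. Short stretches of their windows around the box are shown with the box in capitals, for chr11:120348556-120348605 on the minus strand, chr10:128493030-128493079 on the minus strand and chr6:113377863-113377892 on the plus strand. A match is a sequence description and says nothing of binding.
Actg1: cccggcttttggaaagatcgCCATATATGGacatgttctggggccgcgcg
Myl6: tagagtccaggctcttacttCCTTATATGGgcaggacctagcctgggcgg
Arpc4: CCTAATTTGGtgcccaacctgaggtcgggc

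Over the 157 other genes of the pathway, fixed as lists by role, 99 averaged 10 CPM or more, 47 averaged 100 CPM or more, and 32 stayed under 1 CPM in every library. Of the 130 tested by chi-square 65 passed, against 42.8% of all genes. Of the 65, 14 were highest in replicate 1, 10 in replicate 2 and 41 in replicate 3. Of all 6589 genes that passed, 2758, 886 and 2945 were highest in replicates 1, 2 and 3. Of the 130 tested, 7 passed and spanned 1.5-fold or more, against 13.8% of all genes tested. Formins and Ena/VASP proteins, which lengthen filaments without branches, were led by Fmnl1 at 377 ± 6.77 and Evl at 244 ± 2.36 CPM.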

How the data were processed

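RNA of 3 libraries was sequenced on an Ion Proton, per the labels. The values are whole-number counts for each symbol and replicate, made by the authors on mm10 (submitters' processing notes). Aligner, counter, annotation, strand use and filters: not given in the sources used here. Counts were scaled by TMM (edgeR 4.0.16, R 4.3.3; factors 0.962, 1.01 and 1.03) to CPM, with DESeq2 1.42.0 size factors as an alternative. Lengths, coding sequences and overlaps came from GENCODE M21 (GRCm38), which all 48 genes matched. Pseudogene rows were compared with blastn 2.17.0, with Python 3.11.15, scipy 1.17.1 and biopython 1.88. The chi-square test needed 5 expected counts per library. On simulated data (15398 genes) it recovered 46% of 50 genes changed by 1.25-fold, 62% at 1.5-fold, 82% at 2-fold and 100% at 4-fold. The simulated libraries differed only by counting error and in the changed genes, which were drawn at any level with 5 or more expected counts. The real libraries differed in many more genes, so these rates do not carry over to them. The members, lists and pairs were chosen with earlier results of these data known. Values per library are given for genes of the pairs, the 10 highest and 5 lowest per kilobase, and genes past 1.5-fold, and otherwise where they describe a role. For other pathway genes the 2 most abundant per list are named, and others only as stated. Planned protein comparisons were replaced by coding bases, and the pseudogene measure was added after the data were seen.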

Additional observations from a re-analysis of the deposited data

How the results depend on the processing

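With 3 libraries and 1 group, ratios cannot reach significance and levels carry only the spread between libraries. No paired analysis was possible because all libraries belong to 1 group. Median CPM was 234 to 247 when each replicate was left out (238 with all) and 279 with copies added, a change made after the data were seen. Median CPM per kilobase was 95.3 by longest transcript (62.0 by exon union). Of the genes, 3 reached 1000 CPM, against 37 at 100 CPM. Leaving out each replicate gave 0 to 6 cytoskeletal genes past 1.5-fold (6 with all), 36 to 62 other pathway genes passing (65 with all) and 3555 to 6384 of all genes passing (6589 with all). A test on 2 libraries has fewer counts than on 3. With no scaling factor the genes past 1.5-fold were 5, with Capg in and Arpc2 and Stmn1 out. The share of all genes past 1.5-fold was not computed under any of these alternatives. The log2 ratio of Was to Wasf2 turned to -1.30 without a length. No other ratio turned under the alternatives run. Each gene's level and call and each pair's ratio were checked under each alternative. Of these checks 775 were unchanged, 49 lost a call, 2 gained one, 11 levels moved and 1 ratio turned. Unchanged meant a level within its SD, the same call, or a ratio of the same direction. At 3 counts, levels under 0.186 to 0.236 CPM could not be read.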
